A study of Mus musculus with 3 samples.

Results

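The genes described here encode HMG-box transcription factors of the T lineage and their cofactor beta-catenin, measured in mouse CD4+ CD8+ double-positive (DP) thymocytes. The 9 genes, chosen by symbol, are the LEF/TCF genes Lef1 and Tcf7, the SOX genes Sox4 and Sox13, the TOX genes Tox, Tox2, Tox3 and Tox4, and Ctnnb1, which encodes beta-catenin and has no HMG box. Of these, 8 had 1 probe set each, among 19938 genes with a probe set of their own, and Tcf7 had none and has no value here. Gene expression was measured on 3 Affymetrix arrays, each hybridised with RNA of DP cells from a separate cohort of littermate C57BL/6 wild-type (WT) mice aged 5 to 6 weeks. Each cohort pooled littermates, and the cells were taken with beads for CD8 and then for CD4, with no further stage marker named. No other genotype, stage or treatment was analysed here, so the results are levels, spreads between the 3 cohorts and comparisons with the rest of the array.

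The HMG box is a DNA-binding domain that sits in the minor groove and bends the helix. LEF1 and TCF-1, the product of Tcf7, bind related sites, act partly in place of each other in the thymus, and are needed for passage to and through the DP stage. They repress their targets with Groucho (TLE) corepressors and activate them when beta-catenin, stabilised by Wnt signals or other inputs, joins them. SOX4 supports early T and B cell development, SOX13 is best known in gamma-delta T cells, and TOX is needed for the CD4 T cell lineage after positive selection.

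Start regions of the genes were taken from RefSeq sequence of GRCm38.p6, in windows of 250 bases before and 50 after an annotated start. Of the 9 genes, 8 matched, all but Tox, with 17 windows, some of which overlap. Both strands were searched for CTTTGA (the LEF/TCF core), ACAAT (a SOX core), CCGGAAGT (ETS), TGTGGT (RUNX) and the E-boxes CAGCTG and CAGGTG, since the project mapped Ets1, Runx1 and the E protein E47. A match describes letters in a window and shows no binding. Within a window, no matches shared a base. The following 4 windows are shown 5′ to 3′ on the gene's strand, with motif matches in capitals. The first and last of the 4 Lef1 starts are included because they differ most in these letters, Sox4 because it has a single start, and Tcf7 because the array gave it no value.
Lef1, first start, chr3:131110047-131110346, plus strand: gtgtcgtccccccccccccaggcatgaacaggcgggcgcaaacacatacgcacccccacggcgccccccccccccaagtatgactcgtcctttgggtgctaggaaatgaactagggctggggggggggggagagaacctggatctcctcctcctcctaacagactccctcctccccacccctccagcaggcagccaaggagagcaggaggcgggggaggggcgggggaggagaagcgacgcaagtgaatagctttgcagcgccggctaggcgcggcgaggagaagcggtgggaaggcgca
Lef1, last start, chr3:131156044-131156343, plus strand: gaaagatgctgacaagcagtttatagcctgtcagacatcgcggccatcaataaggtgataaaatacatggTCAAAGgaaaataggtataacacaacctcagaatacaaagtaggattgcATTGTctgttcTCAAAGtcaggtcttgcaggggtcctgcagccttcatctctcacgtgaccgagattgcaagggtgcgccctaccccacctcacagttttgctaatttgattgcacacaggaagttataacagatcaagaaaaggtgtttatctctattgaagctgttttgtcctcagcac
Sox4, chr13:28953650-28953949, minus strand: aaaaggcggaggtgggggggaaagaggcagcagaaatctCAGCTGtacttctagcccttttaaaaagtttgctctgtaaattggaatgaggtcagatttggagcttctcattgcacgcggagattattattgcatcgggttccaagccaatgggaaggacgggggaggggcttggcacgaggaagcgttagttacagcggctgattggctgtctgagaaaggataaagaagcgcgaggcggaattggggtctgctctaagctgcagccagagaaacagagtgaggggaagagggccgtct
Tcf7, second start, chr11:52282546-52282845, minus strand: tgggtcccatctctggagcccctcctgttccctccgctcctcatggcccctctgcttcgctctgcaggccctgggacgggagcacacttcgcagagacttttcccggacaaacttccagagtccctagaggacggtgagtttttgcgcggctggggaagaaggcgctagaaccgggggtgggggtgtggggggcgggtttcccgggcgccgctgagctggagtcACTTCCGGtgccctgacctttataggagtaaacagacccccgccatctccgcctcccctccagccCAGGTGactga

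The first Lef1 window had 67.3% G and C and none of the 6 motifs. The last had 43.7% G and C, with the LEF/TCF core on the reverse strand (TCAAAG) beginning 180 and 120 bases before the start and the SOX core 131 bases before it. For comparison, the median over all 32851 windows was 52.7% G and C. The probe set does not say which Lef1 start was used. The LEF/TCF core occurred in windows of 2 of the 8 genes, Lef1 and Tox2, and in 3 of the 17 windows, of which the pair at Tox2 overlap, against 16.0% of all windows. The SOX core was found in windows of 3 genes (3 windows), against 31.0% of all. CAGCTG was found in 4 windows of 4 genes and CAGGTG in 5 windows of 5 genes, against 16.3% and 20.2% of all windows. The ETS letters occurred once, 26 bases before the second Tcf7 start, against 3.89% of all windows, and the RUNX letters in 0 of 17, against 16.8% of all. The Sox4 window held a single CAGCTG, 211 bases before the start.

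The arrays were alike, with array 1 standing apart from the others. Across 28944 probe sets, Pearson's r was 0.996 for arrays 2 and 3 and 0.993 for array 1 with each of them. In all, 32 probe sets differed by over 1 log2 unit between arrays 2 and 3, against 139 and 123 for array 1 with arrays 2 and 3. The labels give no sex. Xist, the RNA of the inactive X chromosome in females, had 11.65 on array 1, against 5.40 and 5.68 on arrays 2 and 3. The Y-linked Kdm5d had 4.46 on array 1, against 9.10 and 8.97, so array 1 differed in these sex-linked genes from both others. The immediate-early gene Fos had 9.39 on array 1, against 7.86 and 8.27. In the limma variance test described below, Xist and Kdm5d passed (adjusted p = 0.00868 and 0.0208). Fos did not pass it (limma adjusted p = 0.436). Every difference between array 1 and the others below is also one between arrays that differ in these genes. The markers of the sorted stage were present. All 10 measured DP markers exceeded background on every array, among them Cd4 at 11.74 ± 0.15, Cd8a at 13.19 ± 0.14, Cd8b1 at 11.96 ± 0.18 and Rag1 at 13.51 ± 0.10 (mean ± SD of log2 values, n = 3 throughout). With 3 arrays, every SD is itself imprecise.

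Each of the 8 measured genes exceeded background on every array. The background limit was set at the 95th percentile of 115 genes of other organs (117 probe sets), at 6.91, 6.94 and 6.97 on arrays 1, 2 and 3, and 46.9% of all genes passed it on all 3 arrays. The median of the 8 genes was 9.62 (log2), against 6.85 for all genes. With the 99th percentile as the limit, 7.49, 7.49 and 7.42 on arrays 1, 2 and 3, the count was 6 of 8, without Tox2 and Tox3, against 40.5% of all genes. Without array 1 the count was 8 of 8, as it had to be with fewer arrays to pass. It was necessarily 8 of 8 with a lower limit too, the median of the organ genes plus 1 log2 unit, against 49.0% of all genes. These shares of all genes, 1 per limit, are also the reference for every count of a list given below. In bulk RNA, fewer cells that express a gene and less RNA per cell cannot be told apart. A probe set's value also depends on its probes, so the levels of different genes are not ranked.

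Lef1 was far above background in every cohort. Its values were 11.23, 11.43 and 11.52 on arrays 1, 2 and 3, a mean of 11.39 ± 0.15. Array 1 was lowest, and all arrays were at least 4.32 log2 units above their limits. The highest array exceeded the lowest 1.22-fold. Of the LEF/TCF genes best known outside the T lineage, Tcf7l2 was close to the limit, with 7.22, 7.11 and 7.02, and Tcf7l1 was below it on every array, with 6.68, 6.59 and 6.47. With the 99th percentile as the limit, neither passed. Lef1 was thus the only one of the 3 measured LEF/TCF genes above that limit.

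Beta-catenin is the coactivator that LEF1 and TCF-1 share and also a cadherin-bound adhesion protein. Ctnnb1 had 10.80, 10.86 and 10.85 on arrays 1, 2 and 3, a mean of 10.84 ± 0.03. The arrays lay within 1.04-fold of each other. Its relative Jup, which encodes plakoglobin (gamma-catenin), was above background too, with 9.72, 10.19 and 10.06, lowest on array 1. Of the adhesion genes, Ctnna1, the alpha-catenin that links cadherins to actin, also was (8.50 ± 0.07). Ctnnd1 (5.60 ± 0.08), Cdh1 (6.28 ± 0.05) and Cdh2 (4.64 ± 0.03), which encode p120 catenin, E-cadherin and N-cadherin, were below background on all arrays.

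Both SOX genes, Sox4 and Sox13, exceeded the 95th and the 99th percentile limit on every array. Sox4 had 11.11, 11.21 and 11.05 on arrays 1, 2 and 3, a mean of 11.12 ± 0.08 and a range of 1.12-fold. Sox13 had 7.64, 7.61 and 7.68, a mean of 7.64 ± 0.04, which is 0.67 to 0.73 log2 units over the limits. For neither gene was array 1 the highest or the lowest. Among the 17 other SOX genes, 3 lay above background on all arrays, 1 on some and 13 on none. Those 3 were Sox1 (8.25 ± 0.03), Sox3 (7.76 ± 0.06) and Sox10 (7.02 ± 0.03), known for neural and neural crest cells. Sox2 (4.76 ± 0.06) and Sox5 (5.98 ± 0.22) were below background. With the 99th percentile as the limit 2 passed, Sox1 and Sox3, and with the median of the organ genes plus 1 log2 unit 5 did. Sox1 was 1.29 to 1.34 and Sox3 0.76 to 0.89 log2 units over the 95th percentile limits, against 0.67 to 0.73 for Sox13. Passing the limits was thus not particular to the SOX genes known from T cells.

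SOX13 is a marker of gamma-delta T cells, so their genes were set beside it. Of 8 measured genes tied to SOX13 and SOX4 in those cells, none exceeded background on any array, including Etv5 (6.47 ± 0.06), Maf (6.81 ± 0.09), Blk (6.16 ± 0.29) and Zbtb16 (6.22 ± 0.26). Of 11 markers of gamma-delta and innate lymphocytes, 2 were above background on all arrays, Gzma (8.61, 8.08 and 8.18) and Prf1 (7.24, 7.61 and 7.67), which encode a granzyme and perforin. Il2rb exceeded it on 2 arrays, and Klrb1c (5.00 ± 0.49), Ncr1 (4.87 ± 0.21) and Klrk1 (4.40 ± 0.16), which encode NK receptors, did not on any. The summed linear level of the 11 markers was 1230, 977 and 1013 on arrays 1, 2 and 3. On array 1, 8 of the 11 were highest and 1, Prf1, was lowest. Sox13 on array 1 deviated by -0.003 from its 3-array mean. With the 99th percentile as the limit the innate count was 1 of 11. The part of such cells in the Sox13 value was not tested.

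Tox and Tox4 exceeded both limits on every array. Tox had 9.96, 9.65 and 9.78 on arrays 1, 2 and 3, a mean of 9.80 ± 0.16, highest on array 1 and 1.24-fold between its extremes. Tox4, the widely expressed relative that belongs to a protein phosphatase 1 complex, had 9.50, 9.35 and 9.50, a mean of 9.45 ± 0.09. On all arrays both were at least 2.41 log2 units over the limits.

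Tox2 and Tox3 were close to the limit and their detection depended on where it was set. Tox2, a relative studied in NK and follicular helper T cells, had 7.22, 7.49 and 7.22 on arrays 1, 2 and 3, a mean of 7.31 ± 0.16. Tox3, best known in neurons and breast epithelium, had 7.29, 6.98 and 7.38, a mean of 7.22 ± 0.21. On array 2, Tox2 was at its highest and Tox3 at its lowest, only 0.04 log2 units over the limit. Neither exceeded the 99th percentile on any array.

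**Figure D1:**
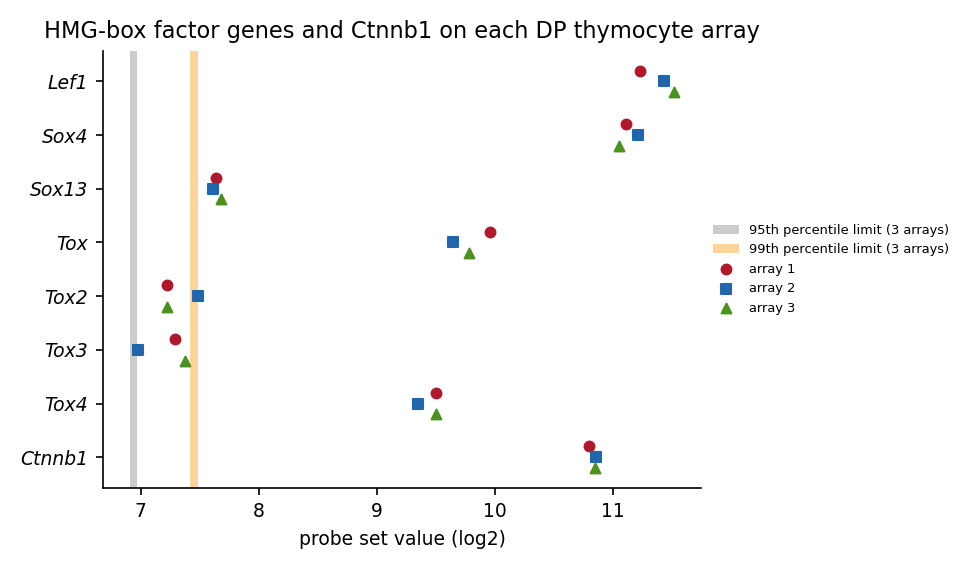
Probe set values (log2, horizontal axis) of the 8 genes on arrays 1, 2 and 3, with vertical bands for the range over arrays of the 95th and 99th percentile limits. Lef1, Sox4 and Ctnnb1 sit at 10.80 or above and Tox and Tox4 between 9.35 and 9.96, while Tox2 and Tox3 lie at or left of the 99th percentile band and Sox13 just right of it.

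The median spread of the 8 genes between cohorts was close to that of all genes. SDs ran from 0.03 for Ctnnb1 to 0.21 for Tox3, with a median of 0.118, against 0.111 for all genes. The largest gap between any pair of arrays was 0.40 log2 units, 1.32-fold, for Tox3. Each SD was compared with that of probe sets of the same level (an F test on limma's robust, level-dependent prior variance, with Benjamini-Hochberg adjustment over 28944 probe sets). None of the 8 passed, adjusted or at an unadjusted p under 0.05, where 0.0207% and 4.66% of all probe sets did. The limma adjusted p ran from 0.988 to 0.999. Tox3 had the smallest unadjusted p, 0.151, with an SD 1.70 times that typical of its level, followed by Tox (0.207, 1.50 times) and Lef1 (0.224, 1.45 times). Sox13 and Ctnnb1 had SDs of 0.29 and 0.31 times the typical one. A p that misses the threshold does not show equal levels, and with 3 arrays only large differences can pass. On arrays 2 and 3 alone, Tox3 had an unadjusted p of 0.0139 and an adjusted p of 0.503 (limma), and none of the 8 passed after adjustment. In that fit 0.435% of all probe sets passed after adjustment and 6.25% at an unadjusted p under 0.05.

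**Figure D2:**
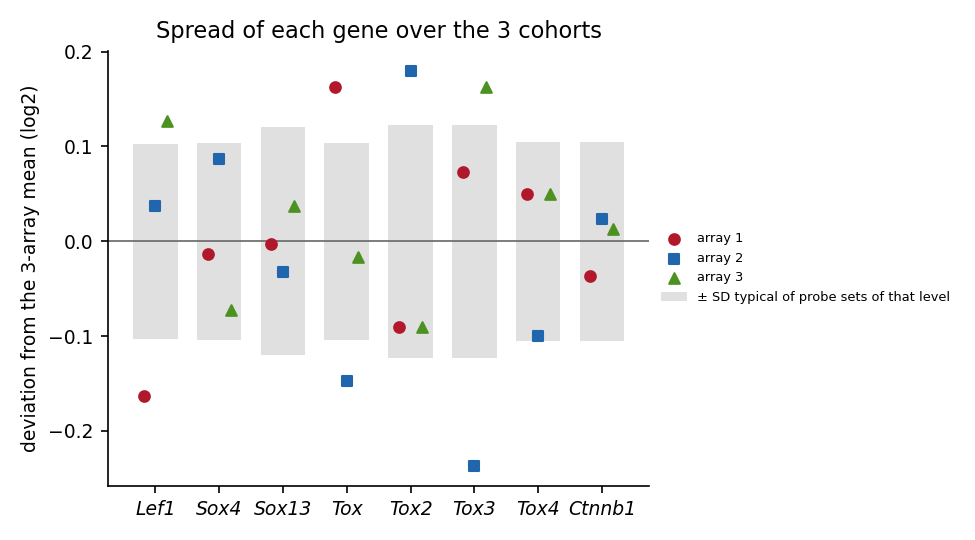
Deviation of each gene on each array from its 3-array mean (log2 units, vertical axis), with grey bars for plus and minus the SD typical of probe sets of that level. Tox3 spans -0.24 on array 2 to 0.16 on array 3, while the 3 points of Sox13 and of Ctnnb1 stay within 0.04 of 0.

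**Figure D3:**
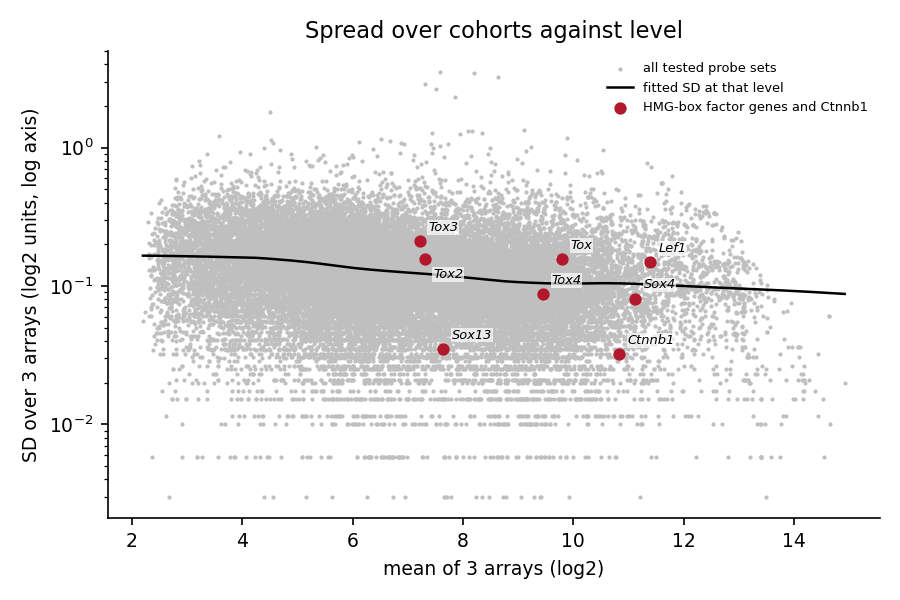
SD over the 3 arrays (log axis) against the 3-array mean (log2) for all 28944 tested probe sets in grey, the fitted SD as a line and the 8 genes in red. Tox3, Tox2, Tox and Lef1 lie above the line and Sox4, Tox4, Sox13 and Ctnnb1 below it; equal values on all arrays, which have an SD of 0, are drawn at the lower edge.

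The genes did not share a direction on array 1, the array set apart. Leaving out ties, 1 of the 8 genes, Tox, was highest there and 2, Lef1 and Ctnnb1, were lowest there. Tox4 tied with array 3 for its highest value and Tox2 with array 3 for its lowest. By the same count, array 1 held the highest value of 34.5% of all genes and the lowest of 39.3%. Lef1 deviated by -0.16, 0.04 and 0.13 on arrays 1, 2 and 3, and Tox by 0.16, -0.15 and -0.02. Their typical SDs were 0.10 each. Among DP markers, 9 of 10 were lowest on array 1, and among the innate lymphocyte markers 8 of 11 were highest there. The part of cell composition in the Lef1 and Tox values was not tested.

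The patterns most like Lef1 and Tox3 were sought among the other 9341 genes above background on all arrays, as the smallest distance between the deviations over the 3 arrays. At 2 decimals Enox2, Ppp1r13b and Smarcad1 had the deviations of Lef1, and 2610005L07Rik was at a distance of 0.008 log2 units. The pattern of Lef1 was shared by many genes, with 265 within 0.05. Near Tox3, the most variable of the 8, were Ampd1 (0.014), Slfn1 (0.016), Appbp2os (0.037) and Atg10 (0.042), of 5 within 0.05.

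The beta-catenin destruction complex, which phosphorylates beta-catenin and marks it for degradation, was represented by 9 genes. Each of them exceeded both the 95th and the 99th percentile limit on every array. The scaffolds Apc, Axin1 and Axin2 had 9.18 ± 0.02, 9.31 ± 0.10 and 7.73 ± 0.14, and Amer1, which recruits the complex to the membrane, had 8.49 ± 0.10. The kinases Gsk3a, Gsk3b and Csnk1a1 had 10.73 ± 0.18, 10.33 ± 0.03 and 11.77 ± 0.02. The ubiquitin ligase subunits Btrc and Fbxw11 had 9.20 ± 0.04 and 9.26 ± 0.22, Fbxw11 with 9.51 on array 1, against 9.10 and 9.18 on arrays 2 and 3 (limma, unadjusted p = 0.0883).

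Of the cofactors, 7 of 8 beta-catenin coactivators and 8 of 10 measured corepressors lay above background on all arrays, against 46.9% of all genes. Bcl9 (8.69 ± 0.09) and Bcl9l (7.87 ± 0.12) bridge beta-catenin to Pygopus proteins, of which Pygo2 (8.52 ± 0.04) was detected and Pygo1 (6.12 ± 0.04) was not. Of the Groucho corepressors, Tle3 (10.33 ± 0.15), Tle4 (8.23 ± 0.13) and Tle2 (7.42 ± 0.21) exceeded the limits on all arrays. Tle1 (7.02 ± 0.15) exceeded them on 2, and Ctbp2 (6.21 ± 0.26), a further corepressor gene, on none. Every other measured corepressor gene, within and outside the Groucho family, exceeded them on all arrays. With the 99th percentile as the limit, the corepressor count was 7, against 40.5% of all genes.

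Wnt receptor and ligand genes were detected in part. Of 16 genes for receptors and transducers, 7 lay above background on all arrays, near the share of all genes (46.9%), and 5 with the 99th percentile as the limit, against 40.5% of all genes. The Frizzled receptor genes Fzd1 (6.79 ± 0.09), Fzd2 (6.17 ± 0.04), Fzd3 (5.37 ± 0.09) and Fzd4 (5.66 ± 0.11) did not exceed background on any array. The Frizzled genes Fzd7 (7.35 ± 0.24) and Fzd9 (7.14 ± 0.06) and the coreceptor genes Lrp5 (9.06 ± 0.04) and Lrp6 (9.15 ± 0.02), chosen after their values were seen, were among the 7. Fzd5, chosen likewise, exceeded background on 2 arrays. The 5 that passed the 99th percentile limit were Lrp5, Lrp6 and the transducer genes Dvl1, Dvl2 and Dvl3. No Frizzled gene passed that limit on all arrays. Of 21 genes for ligands and their secretion, 5 lay above background on all arrays, against 46.9% of all genes. These were Wls, the carrier that Wnt secretion needs (8.76 ± 0.03), and Wnt4 (7.71 ± 0.13), Wnt5b (7.70 ± 0.12), Wnt6 (7.48 ± 0.02) and Wnt9a (7.04 ± 0.10). Wnt1, Wnt2, Wnt2b and Wnt3 were below it, with means of 5.19, 6.12, 6.32 and 5.94. With the 99th percentile as the limit the count for ligands and secretion was 3, Wls among them, against 40.5% of all genes.

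Of 11 genes used as readouts of Wnt and beta-catenin activity, 4 exceeded background on all arrays, against 46.9% of all genes. With the median of the organ genes plus 1 log2 unit as the limit, 5 did, against 49.0% of all genes. The stricter 99th percentile limit kept only 3 of the 11 on every array, while 40.5% of all genes passed it. These shares are no result about the list. The 4 were Axin2, given above, Znrf3 (8.79 ± 0.03), which encodes a ligase that removes Frizzled receptors, Apcdd1 (7.50 ± 0.32) and Myc (9.29 ± 0.22). Nkd1 (6.83 ± 0.04), Nkd2 (6.09 ± 0.16) and Lgr5 (5.27 ± 0.26) did not. Axin2 had 7.88, 7.70 and 7.61, and Apcdd1 7.85, 7.21 and 7.45, on arrays 1, 2 and 3, each highest on array 1. Apcdd1 was the gene lost at the 99th percentile limit, which its value on array 2 did not reach. The limma unadjusted p was 0.345 for Axin2 and 0.0373 for Apcdd1, and neither passed after adjustment over all probe sets.

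Thymocyte genes linked with TCF-1 or LEF1 were mostly detected. Of 7 measured, 6 lay above background on all arrays, against 46.9% of all genes. These were Bcl11b (11.63 ± 0.04), Gata3 (10.44 ± 0.05), Tcf12, which encodes the E protein HEB (11.63 ± 0.07), Bcl2l1, a survival gene of DP cells (11.00 ± 0.09), Cd4 (given above) and Id3 (9.31 ± 0.08). The exception was Prdm1, a gene that TCF-1 is known to restrain, with 6.14, 5.64 and 5.96. Of 7 genes linked with TOX, with CD4 or CD8 lineage choice or with upstream signals, 6 lay above background on all arrays. Myb (12.16 ± 0.04), Nfatc3 (11.67 ± 0.09), Nfatc1 (9.06 ± 0.01), Nfatc2 (7.88 ± 0.02) and Runx3 (7.57 ± 0.06) joined Gata3. Zbtb7b, which encodes the CD4 lineage regulator ThPOK, had 7.08, 6.83 and 6.87 and exceeded the limit on array 1 alone.

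The HMG-box genes outside these families, which encode mostly chromatin proteins, were detected nearly throughout. Of 15 measured, 14 lay above background on all arrays, with a list median of 9.60 (log2). Hmgb1 (10.76 ± 0.13), Hmgb2 (12.13 ± 0.20) and Hmgb3 (9.60 ± 0.05) encode abundant chromatin proteins that bend DNA without sequence preference. Hmgb4, known from testis, was the exception (4.97 ± 0.23). No gene of any list of families and pathways passed the limma variance test after adjustment.

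**Figure D4:**
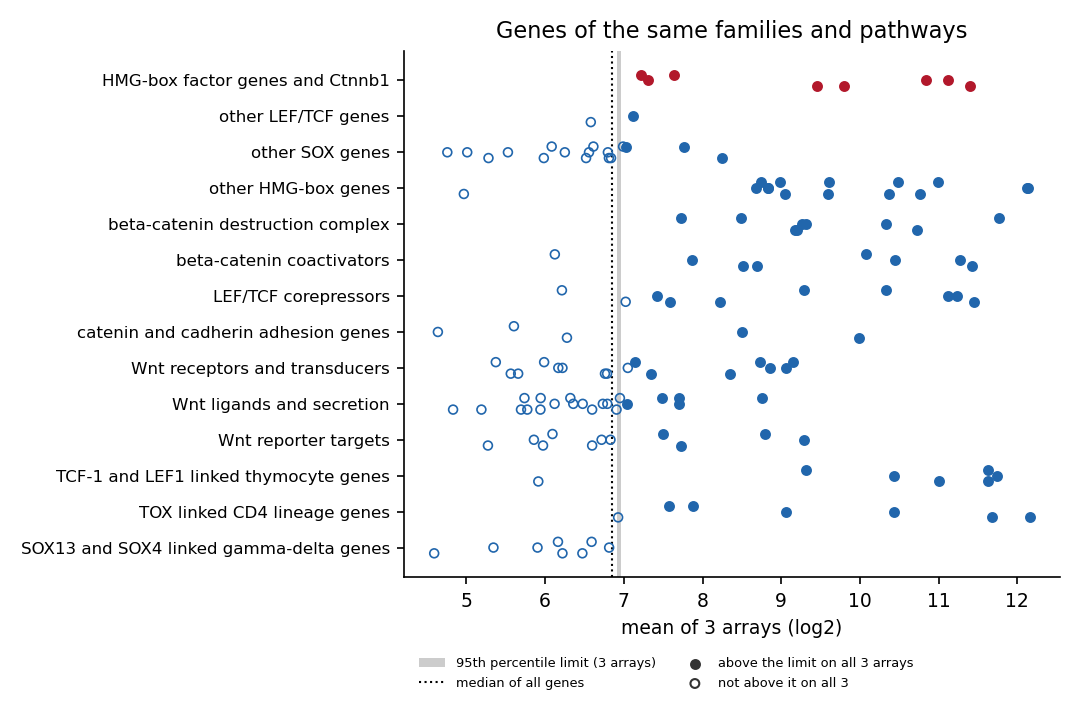
Means of 3 arrays (log2, horizontal axis) of the 8 genes in red and of the genes of 13 family and pathway lists in blue, filled where the gene exceeded the 95th percentile limit on all 3 arrays and open where it did not. The destruction complex row is filled throughout and the row of gamma-delta genes open throughout; the dotted line is the median of all genes, 6.85.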

How the data were processed

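RNA of 3 samples of 1 group was hybridised to 1 Affymetrix array each. The authors deposited 1 log2 value per probe set and array, with 2 decimals; the log2 scale was inferred from their span of 1.6 to 14.94. The package affy is named in the submitters' processing notes. Its background correction, normalization and summarization, and the build, were not given in the sources used here. After sorting, the values of arrays 1 and 2, and of arrays 2 and 3, differ by 0.15 or less at every rank. Arrays 1 and 3 were not compared directly in this way. A global difference in RNA content would not be visible in values this alike. The labels' protocol describes fixation before the sort without saying whether the RNA samples were fixed.

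Of 35556 probe sets, 6612 with the lowest numbers and no symbol were taken as controls and left out, which left 28944. Genes were named where the platform annotation gives 1 symbol (21789 probe sets; 1621 have several and 12146 none). A RefSeq table of GRCm38.p6 held the gene IDs of 21698 and changed 0 symbols. The brightest probe set by mean represented a gene. The variance test used limma 3.58.1 in R 4.3.3 and was called at an adjusted p under 0.05. Its code was tried on data simulated from its own fitted prior, with shifts larger than any gap among the 8 genes. That trial does not show how often differences as small as theirs would be called. Tables were made in Python 3.11.15 with pandas 2.3.3. The 9 genes, 21 other lists and the organ-specific genes were chosen with earlier results of these data known. Genes were named from the members, 4 short lists, the first 4 of each other list and the smaller side of the background limit where it held 6 or fewer; not every gene so allowed is named. Results were recomputed with each array left out, with other normalizations (quantile, median centring), background limits, choices of probe set and variance priors, and on other sets of probe sets.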

Additional observations from a re-analysis of the deposited data

How the results depend on the processing

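The count of the 8 genes above background was 8 under quantile normalization, which keeps the order of values on an array. With the 99th percentile as the limit it was 6. It was also 8 under the other alternatives, where it could not fall. Leaving out an array leaves fewer limits to pass, and median centring shifts values and limits alike. Both other choices of probe set changed nothing, as each gene had 1. The organ-gene median plus 1 log2 unit was a lower limit than the 95th percentile on every array. The median of the 8 genes ran from 9.57 to 9.69 when an array was left out, against 9.62 with all arrays. It stayed within its SD over arrays (0.116) under quantile normalization. Median centring leaves each gene's mean over the arrays unchanged, so the median could not move under it. None of the 8 passed the limma variance test under any alternative, with adjusted p from 0.503 to 0.998 for the smallest in each. No more than 1 reached an unadjusted p under 0.05, Tox3 without array 1. The number of probe sets called by that test, 6 with all arrays, moved most. It was 126 to 304 with an array left out, where limma's prior had infinite degrees of freedom on 2 arrays. It was 0 with a prior without a trend (1295 at an unadjusted p under 0.05), 0 with the control block included (1892) and 3 without probe sets below background on all arrays. The cause of these moves was not tested. Of 189 recomputed counts of the other lists, 8 moved by over 1.5 times, each under another background limit. All 56 recomputed levels of the 8 genes and 96 deviations moved by less than the gene's SD, but most could not have moved further. Leaving out an array shifts a mean of 3 by less than 1 SD, median centring leaves it unchanged, and each gene had 1 probe set. Only quantile normalization could have moved a level by more, and only the normalizations a deviation. The deviation of Sox13 on array 1, -0.003, was 0.007 after median centring. No paired analysis was possible because the labels give 1 group. The number of arrays limits every test of spread, and values near 7 depend on the limit.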

Other observations

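Markers of other stages and cell types that the bead sort could hold were partly detected. Of 8 measured mature single-positive T cell markers, 6 lay above background on all arrays, among them Ccr7 (8.19 ± 0.14), S1pr1 (7.83 ± 0.24), Il7r (7.51 ± 0.45) and Klf2, with 9.13, 8.43 and 8.41 on arrays 1, 2 and 3. Of 10 early thymocyte and progenitor markers, 2 did, Lyl1 (7.28 ± 0.18) and Lmo2 (7.25 ± 0.19), and 0 with the 99th percentile as the limit, while Kit (6.78 ± 0.09), Flt3 (6.47 ± 0.13) and Spi1 (5.69 ± 0.15) did not on any array and Il2ra (6.60 ± 0.35) did on array 1 alone. Of 6 B cell markers, only Cd79b did (8.78 ± 0.05). Of 10 myeloid and dendritic markers, Cd74 and H2-Ab1 did, H2-Aa did on 2 arrays and Csf1r (6.43 ± 0.16) on none, and the summed linear level of that list was 1939, 978 and 1352 on arrays 1, 2 and 3. Of 12 thymic epithelial and stromal markers, Ccl25 (7.64 ± 0.14), Col1a1 (7.50 ± 0.03) and Col3a1 (7.08 ± 0.06) did, a count that was 1 at the 99th percentile limit and 5 at the organ-gene median plus 1 log2 unit. None of 3 measured erythroid markers did.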
